A study of Mus musculus with 2 samples.

Results

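The neurotrophins Bdnf, Ntf3 and Ntf5 and the receptors Ngfr, Ntrk2 and Ntrk3 were followed in the pleuroperitoneal folds (PPFs), the paired embryonic folds that give rise to connective tissue of the diaphragm. The 6 genes were taken by symbol from the 38926 genes listed, and all 6 were found in both libraries. RNA came from wild-type mouse embryos of a mixed strain (129s/SvlmJ-C57/BL6J) at embryonic day 12.5, with no treatment labelled. They form a single group of 2 libraries, named replicates 1 and 2, and 2 PPF pairs were pooled for each library. The series was made to rank genes from human studies of congenital diaphragmatic hernia and no other tissue, stage or genotype was analysed here. Replicate 1 held 26370253 counts and replicate 2 held 23255957, of which the 6 genes took 4985 and 4536. No source used here says that the pairs came from separate litters, so the spread between the libraries may be partly technical. PPF genes were present: the mesenchymal regulator Gata4 stood at 176 ± 3.50 TPM and the mesothelial regulator Wt1 at 90.7 ± 1.33 TPM.

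Neurotrophins are secreted growth factors that keep sensory and sympathetic neurons alive and steer the growth of their axons. Each is made as a proform that proteases of the furin type cut to the mature ligand. Bdnf and the product of Ntf5, neurotrophin 4, act through the receptor tyrosine kinase TrkB (Ntrk2), and neurotrophin 3 (Ntf3) acts mainly through TrkC (Ntrk3). Ngfr encodes p75, a receptor without kinase activity that binds all of them and that marks neural crest cells and Schwann cell precursors. Ntrk2 and Ntrk3 also give truncated receptors that lack the kinase, and a count per gene does not separate these forms. Embryonic muscle is known as a source of neurotrophin 3 for the sensory neurons that innervate it, and the axons of the phrenic nerve grow into the developing diaphragm.

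The ligand genes are related in sequence, as are the Trk genes, and reads from stretches that are alike are harder to assign to 1 gene. The coding stretches most alike over all genes of each set are therefore shown first, which need not be those most alike between a pair. Each is a window of 60 bases in a single exon from the longest coding transcript of the gene in GENCODE M21 (build GRCm38), written 5′ to 3′ on the gene's strand. Capitals mark positions with the same base in every gene of the set, and lower case marks positions that differ. Among the 3 ligands, 34 of the 60 positions were the same.
Bdnf (chr2:109724006-109724065, plus strand): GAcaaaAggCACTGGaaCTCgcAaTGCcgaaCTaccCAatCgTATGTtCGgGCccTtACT
Ntf3 (chr6:126101816-126101875, minus strand): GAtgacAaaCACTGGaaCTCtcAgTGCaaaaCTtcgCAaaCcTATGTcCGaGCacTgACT
Ntf5 (chr7:45415926-45415985, plus strand): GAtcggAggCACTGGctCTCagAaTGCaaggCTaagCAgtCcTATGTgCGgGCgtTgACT
Between the receptor genes Ntrk2 and Ntrk3 the most alike window had 54 of 60 positions in common.
Ntrk2 (chr13:59054401-59054460, plus strand): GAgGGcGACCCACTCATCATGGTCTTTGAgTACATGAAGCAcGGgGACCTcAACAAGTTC
Ntrk3 (chr7:78250706-78250765, minus strand): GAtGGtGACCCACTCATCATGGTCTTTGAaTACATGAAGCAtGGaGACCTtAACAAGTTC

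Over the whole aligned coding sequence, identity was 52.2% between Bdnf and Ntf3, 52.5% between Bdnf and Ntf5, 51.6% between Ntf3 and Ntf5 and 60.8% between Ntrk2 and Ntrk3. Between pairs of ligand genes, the longest runs of identical bases lay outside the ligand windows above. The longest run was 17 bases for Bdnf and Ntf3, 10 for Bdnf and Ntf5 and 18 for Ntf3 and Ntf5. For Ntrk2 and Ntrk3 it was the 23-base run GACCCACTCATCATGGTCTTTGA, which lies in the receptor window above. The read length was not given in the sources used here.

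Levels are given as TPM, that is, counts divided by gene length and brought to an equal total per library, with the mean ± SD of the 2 libraries (n = 2). Intervals are exact 95% Poisson intervals and cover counting error only, since PCR copies of a molecule cannot be recognised without molecular identifiers. All 6 genes reached 1 TPM in both libraries, against 44.4% of everything listed and 63.4% of the 21460 genes annotated as protein-coding, and 4 of the 6 reached 10 TPM in both. Their median was 16.3 TPM, against 26.8 TPM over the protein-coding genes that reached 1 TPM in both libraries. From highest to lowest the order was Ngfr, Ntf3, Ntrk3, Ntf5, Ntrk2 and Bdnf, the same in each library. Every pair of neighbours in this order had intervals that did not overlap in either library. In these folds a low level can mean few cells with the transcript or little transcript per cell, and bulk libraries cannot tell these apart.

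**Figure D1:**
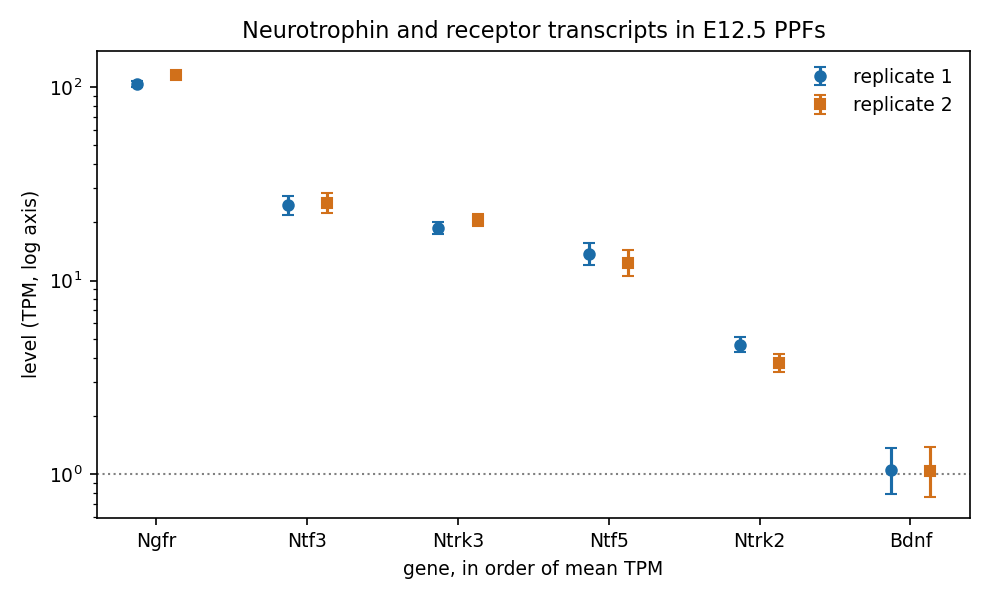
Level of each neurotrophin and receptor gene in TPM (log axis) in replicate 1 (circles) and replicate 2 (squares); bars are exact 95% Poisson intervals and the dotted line marks 1 TPM. Ngfr stands at 104 and 115 TPM, above every other gene, and Bdnf, at 1.04 TPM in both libraries, lies next to the 1 TPM line.

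Of the ligands, Ntf3 (chromosome 6, 126101413 to 126166744) was highest. It had 296 counts in replicate 1 and 262 in replicate 2, which gave 24.4 TPM (interval 21.7 to 27.4) and 25.3 TPM (22.3 to 28.5). The libraries overlapped, and the mean was 24.9 ± 0.573 TPM. Ntf5 (chromosome 7, 45413695 to 45417178), the gene of neurotrophin 4, had 229 and 176 counts, or 13.8 TPM (12.03 to 15.7) and 12.3 TPM (10.6 to 14.3), with a mean of 13.05 ± 1.001 TPM. Both libraries put Ntf5 below Ntf3, which was 1.78 times as high in replicate 1 (interval 1.49 to 2.12) and 2.05 times in replicate 2 (1.68 to 2.49).

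Bdnf (chromosome 2, 109674700 to 109727007) was the lowest of the 6 genes. Its 55 and 47 counts over 6217 bases gave 1.04 TPM in each library (intervals 0.785 to 1.36 and 0.764 to 1.38), with a mean of 1.04 ± 0.00188 TPM. The intervals reach below 1 TPM, so whether Bdnf passes that threshold is within counting error. Of the protein-coding genes 35.8% had a lower mean TPM. Ntf5, whose product shares the TrkB receptor with Bdnf, was 13.2 times as high as Bdnf in replicate 1 (interval 9.79 to 18.05) and 11.9 times in replicate 2 (8.56 to 16.7). Ntf3 was 23.4 times (17.5 to 31.9) and 24.3 times (17.7 to 33.9) as high as Bdnf. By mean TPM, Ntf3 made up 63.8%, Ntf5 33.5% and Bdnf 2.67% of the summed level of these 3 ligands. In GENCODE M21, 896 Bdnf exon bases (14.4%) are shared with Gm45346, an antisense gene that the files do not list. The strand setting of the counting was not given in the sources used here, so Bdnf counts may include reads of that gene. No other gene's exons overlap those of Ntf3, Ntf5, Ngfr, Ntrk2 or Ntrk3 in that annotation.

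Ngfr (chromosome 11, 95568818 to 95587735), the p75 receptor gene, was the highest of the 6. Its 3028 and 2890 counts gave 104 TPM (interval 99.9 to 107) and 115 TPM (111 to 119.7), with a mean of 109 ± 8.35 TPM. The intervals did not overlap, and replicate 2 was the higher library. By mean TPM, 1559 of the 21460 protein-coding genes stood above it. Ngfr was 4.44 times the summed TPM of Ntrk2 and Ntrk3 in replicate 1 and 4.74 times in replicate 2, and 2.64 and 2.99 times the summed TPM of Bdnf, Ntf3 and Ntf5. Among Schwann cell precursor genes, Ngfr was above both Erbb3, a neuregulin receptor gene, by 1.60 times (1.52 to 1.68) and 1.52 times (1.45 to 1.60), and Sox10, a neural crest regulator, by 4.93 times (4.47 to 5.43) and 4.78 times (4.34 to 5.28). Erbb3 and Sox10 were the highest of the 9 Schwann cell precursor genes listed, whose median was 5.89 TPM. Which cells carried the Ngfr transcript was not tested.

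Ntrk3 (chromosome 7, 78192362 to 78578408), the TrkC gene, had 830 and 784 counts, or 18.7 TPM (interval 17.4 to 19.98) and 20.6 TPM (19.2 to 22.1), with a mean of 19.6 ± 1.35 TPM. The libraries overlapped. Its ligand gene Ntf3 was 1.31 times as high in replicate 1 (1.14 to 1.497) and 1.23 times in replicate 2 (1.06 to 1.41). Ntrk2 (chromosome 13, 58806596 to 58937030), the TrkB gene, had 547 and 377 counts, or 4.67 TPM (4.29 to 5.08) and 3.76 TPM (3.39 to 4.16), with a mean of 4.21 ± 0.646 TPM. Here replicate 1 was the higher library, and the intervals did not overlap. Ntrk3 was 3.997 times as high as Ntrk2 in replicate 1 (3.58 to 4.46) and 5.48 times in replicate 2 (4.84 to 6.21), so the ratio of the 2 receptor genes differed between the libraries by more than counting error. Of the TrkB ligand genes, Ntf5 stood above Ntrk2 by 2.95 and 3.29 times, whereas Bdnf was at 0.223 and 0.277 of the Ntrk2 level.

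The order per length rests on the gene models behind the files. For Ngfr and Bdnf the deposited length equals the exon bases in GENCODE M21 (3446 and 6217). For Ntf3 the files give 1427 bases against 1714 exon bases in GENCODE M21, for Ntf5 1962 against 2653, for Ntrk3 5241 against 30170 and for Ntrk2 13806 against 19292. With the GENCODE exon bases inside each deposited interval as the length, the order of the 6 genes was the same. With all GENCODE exon bases, Ntrk3 lay below Ntf5 (3.41 against 9.65 TPM), so the place of Ntrk3 depends on the length used. Only 7365 of the 30170 Ntrk3 exon bases lie inside the deposited interval, and the counts were kept as deposited. Reads from the other bases may not have been counted, so 3.41 TPM may be too low and does not settle the place of Ntrk3. With all GENCODE exon bases Ntf3 stood at 20.7 TPM and Ntrk2 at 3.02 TPM. The ratios and shares between genes given above therefore depend on the length used wherever Ntf3, Ntf5, Ntrk2 or Ntrk3 enters. Their intervals do not cover this. These lengths were tried after the data were seen. The deposited Ntrk2 interval holds 12416 of the GENCODE exon bases, fewer than the deposited length, and it ends upstream of 1070 of the 2463 coding bases of the longest transcript, the receptor window printed above among them. Whether reads from those exons were counted was not given in the sources used here, so the Ntrk2 level and its place relative to Ntrk3 carry that limit. In CPM, counts scaled to the library total without regard to length, which do not rank genes by level, the Ntrk genes lay nearer the top: Ntrk3 had 32.6 ± 1.58 CPM and Ntrk2 18.5 ± 3.20 CPM, against 11.2 ± 0.0291 CPM for Ntf3.

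How far the 6 genes differed between the pools of the same tissue was examined next. Counts were scaled by TMM factors and compared with an exact two-sided binomial test, adjusted by Benjamini-Hochberg over the 19433 genes whose counts in the libraries summed to 10 or more. This compares 2 libraries, not conditions, and takes no noise into account beyond that of counting. Genes with more counts pass it more easily. With at least 50 counts over both libraries, 3474 of 15542 genes had an adjusted p under 0.05, against 3399 of 19433 with at least 10. None of the 6 genes had an adjusted p under 0.05 together with a difference of at least 2-fold, a call made for 1.26% of all genes tested (0.71% higher and 0.551% lower in replicate 2). An unadjusted binomial p under 0.05 was found for 2 of the 6, Ngfr and Ntrk2, and these also had an adjusted p under 0.05, as did 17.5% of all genes (8.85% higher and 8.65% lower in replicate 2). Their median log2 ratio was -0.02, against -0.01 over all genes tested, with 3 higher and 3 lower in replicate 2.

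**Figure D2:**
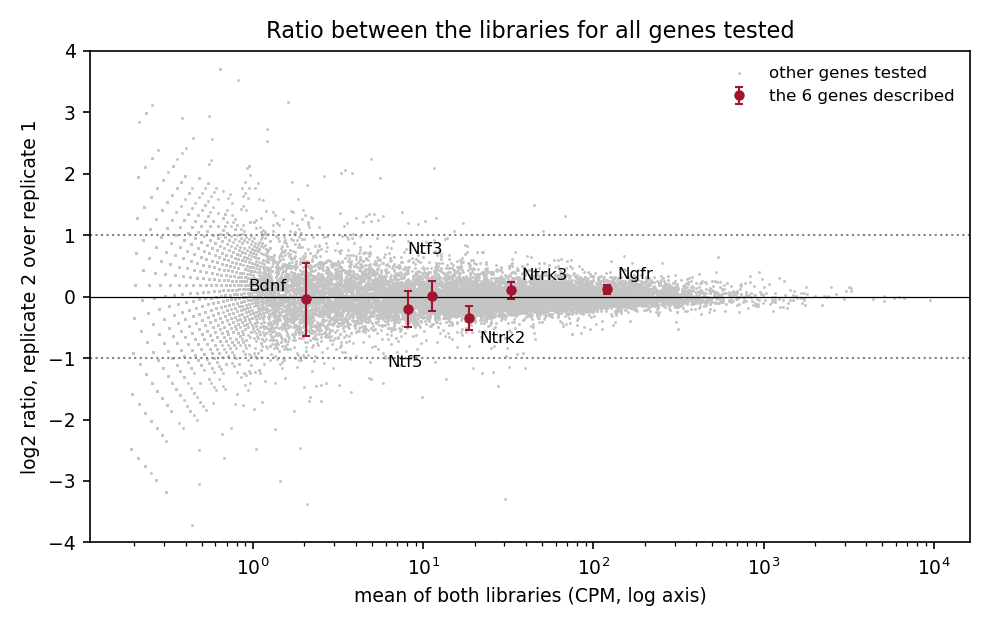
Log2 ratio of replicate 2 over replicate 1 against mean CPM (log axis) for the genes tested (grey) and the 6 neurotrophin and receptor genes (red), with exact 95% binomial intervals; dotted lines mark 2-fold, and 15 genes lie beyond the plotted range of 4 in size. All 6 red points lie within 2-fold, from Ntrk2 at -0.35 to Ngfr at 0.12.

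Ntrk2 had the largest ratio in size of the 6, at -0.35 on the log2 scale (95% interval -0.55 to -0.16, exact binomial adjusted p = 0.00276), so that replicate 2 was lower. Ngfr was higher in replicate 2 by 0.12 (0.04 to 0.19, exact binomial adjusted p = 0.0146). EdgeR's exact test adds a spread of 7.99% between libraries, estimated from the genes tested in the same 2 libraries taken as 1 group. With it the adjusted p was 1 for each of the 6 genes and none had an unadjusted p under 0.05 (Ntrk2 0.0637, Ngfr 0.487). The differences tested are part of that spread, so the lack of a call does not show that the libraries were alike. The other genes had log2 ratios of 0.10 for Ntrk3 (-0.04 to 0.24), 0.01 for Ntf3 (-0.24 to 0.25), -0.19 for Ntf5 (-0.49 to 0.09) and -0.04 for Bdnf (-0.64 to 0.55). For Bdnf, the gene with the fewest counts, the interval was the widest and did not reach 2-fold in either direction.

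Cell type markers were listed to see which cells of the nervous system the folds held. The neuronal genes were led by the axonal growth gene Gap43 (28.8 ± 6.21 TPM) and the neurofilament genes Nefm (9.85 ± 4.01 TPM) and Nefl (9.73 ± 4.25 TPM), and 10 of 12 reached 1 TPM in both libraries. Of these 12, 10 were higher in replicate 2 by the binomial test (adjusted p under 0.05) and none lower, against 8.85% higher and 8.65% lower among all genes tested, and the summed level was 61.5 TPM in replicate 1 and 105 TPM in replicate 2. Sympathetic genes, with Hand2 (23.6 ± 2.54 TPM), Dbh (4.53 ± 3.93 TPM) and Phox2a (4.42 ± 2.10 TPM) highest, were higher in 3 of 6 cases and lower in none, and their sum was 28.6 and 43.2 TPM. Hand2, which mesenchyme is also known to express, made up most of that sum and did not pass the test, and the other 5 genes summed to 6.76 and 17.8 TPM. All 9 Schwann cell precursor genes reached 1 TPM in both libraries, among them Erbb3 (70.3 ± 7.85 TPM), Sox10 (22.6 ± 2.20 TPM) and Fabp7 (9.01 ± 1.27 TPM). Of these 9, 3 were higher in replicate 2 and none lower, and the sum was 121 and 144 TPM.

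Genes listed for sensory and motor neurons were low or at 0, apart from Runx1. No count of the sensory regulators Neurog1 and Neurog2 was found in either library, and at a floor of 3 counts replicate 2 allows 0.249 and 0.185 TPM. Pou4f1, a sensory neuron regulator, stood at 1.12 ± 0.133 TPM and Avil at 1.99 ± 0.179 TPM, while Runx1 (33.7 ± 2.68 TPM) is also a gene of blood cells. Mnx1, a motor neuron regulator, likewise had none, and its floor in replicate 2 was 0.180 TPM. Of the other motor neuron genes Slc5a7, a choline transporter gene, was highest at 3.33 ± 1.98 TPM, followed by Isl2 at 0.479 ± 0.234 TPM and Chat at 0.119 ± 0.109 TPM. By the binomial test at an adjusted p under 0.05, 1 of 4 tested sensory genes (Runx1) and 1 of 2 tested motor neuron genes (Slc5a7) were higher in replicate 2. None was lower, against 8.85% higher and 8.65% lower among all genes tested. Slc5a7 also passed the 2-fold call, with a log2 ratio of 1.25. The summed TPM of 10 of the 11 marker lists was higher in replicate 2, as was Ngfr and unlike Ntrk2. The exception was the blood and macrophage list, at 5296 and 4867 TPM. The direction of a sum alone says little. Mesothelial (636 and 658 TPM) and sensory genes (35.3 and 38.8 TPM) rose in sum, with median log2 ratios of -0.01 and -0.05 after TMM scaling. The largest medians were those of the hepatoblast (1.35), sympathetic (1.16) and neuronal (0.85) lists, so large rises were not particular to the nerve lists. The part of the listed cell types in the differences of Ngfr and Ntrk2 was not tested.

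**Figure D3:**
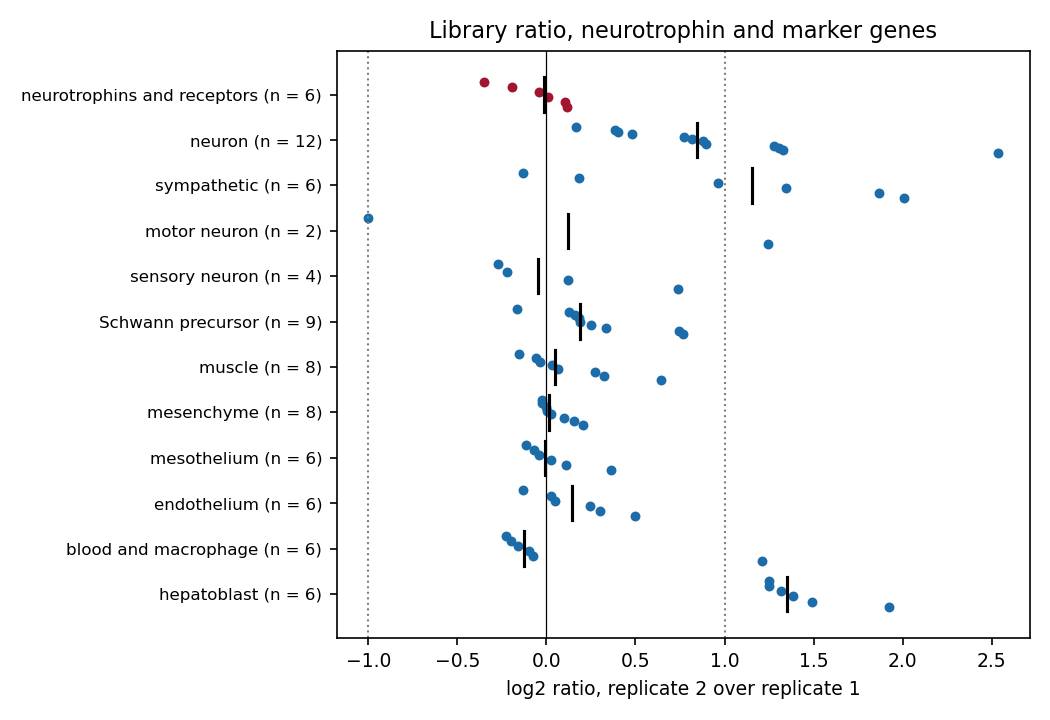
Log2 ratio of replicate 2 over replicate 1 for the 6 neurotrophin and receptor genes (red) and for the tested genes of 11 marker lists (blue); black bars are medians, and dotted lines mark 2-fold. The medians of the neuronal (0.85), sympathetic (1.16) and hepatoblast (1.35) genes lie to the right of the 6 genes' median of -0.02.

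The remaining lists were described in the same way. Muscle genes were led by Actc1 (1924 ± 64.9 TPM), Myog (648 ± 0.661 TPM) and Myh3 (542 ± 27.9 TPM), and mesenchymal genes by Col1a1 (2810 ± 16.9 TPM), Col3a1 (2521 ± 19.9 TPM) and Lum (572 ± 54.2 TPM). Mesothelial genes were led by Aldh1a2 (269 ± 0.431 TPM), Upk3b (231 ± 17.0 TPM) and Wt1, and endothelial genes by Cdh5 (73.5 ± 12.1 TPM), Kdr (49.8 ± 2.33 TPM) and Tie1 (35.5 ± 4.93 TPM). Every gene of these 4 lists reached 1 TPM in both libraries, as did all 6 blood and macrophage genes, led by Hbb-y (4283 ± 253 TPM), Hba-a1 (554 ± 43.8 TPM) and C1qb (98.1 ± 1.83 TPM). At the same adjusted p under 0.05 in the binomial test, passed by 8.85% of all genes as higher and 8.65% as lower, 4 of 8 muscle genes were higher in replicate 2 and 1 lower, 2 of 8 mesenchymal genes higher and 2 lower, 1 of 6 mesothelial genes higher, 3 of 6 endothelial genes higher and 1 lower, and 1 of 6 blood genes higher and 2 lower. The hepatoblast genes, with Afp (104 ± 64.5 TPM), Alb (69.8 ± 47.9 TPM) and Ttr (4.48 ± 2.92 TPM) highest, reached 1 TPM in 3 of 6 cases and summed to 98.1 TPM in replicate 1 and 264 TPM in replicate 2, where 5 of the 6 were higher and none lower.

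Genes that act with the neurotrophins were taken from 4 lists. The sortilin family encodes receptors that bind proneurotrophins together with p75 or sort them within the cell. Sort1, the sortilin gene, was the highest of the family at 77.3 ± 3.37 TPM (74.9 and 79.7 TPM), and Ngfr stood above it by 1.38 times (1.32 to 1.45) and 1.45 times (1.38 to 1.52). Sorcs2 followed at 46.2 ± 1.17 TPM, Sorl1 stood at 8.52 ± 0.411 TPM and Sorcs3 at 5.36 ± 0.744 TPM, and the lowest was Sorcs1 at 3.33 ± 0.978 TPM. All 5 genes of the family reached 1 TPM in both libraries. By the exact binomial test 1 of the 5, Sorcs1, had an adjusted p under 0.05 (log2 ratio 0.57, adjusted p = 0.000639), higher in replicate 2. Among all genes tested 8.85% were higher and 8.65% lower at that threshold.

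Among 13 genes of proneurotrophin cleavage and of the plasmin system, 9 reached 1 TPM in both libraries, with a median of 3.97 TPM. Plat, which encodes tissue plasminogen activator, was highest at 260 ± 2.39 TPM, followed by the proprotein convertase genes Furin (36.8 ± 2.04 TPM), Pcsk7 (29.8 ± 0.638 TPM) and Pcsk5 (24.0 ± 2.03 TPM). Mmp3 and Mmp7, genes of matrix proteases, had no count in either library, with floors of 0.230 and 0.386 TPM in replicate 2. Plg, the plasminogen gene, which fetal liver is known to make, had 28 and 66 counts (1.20 and 3.30 TPM) and was the single gene of the 4 lists to pass the 2-fold call between the libraries (log2 ratio 1.41, interval 0.76 to 2.11, exact binomial adjusted p = 0.000109). Of the 10 genes with enough counts to test, 2 were higher and 1 lower in replicate 2 at an adjusted p under 0.05. Among all genes tested the shares were 8.85% and 8.65%. The hepatoblast genes given above were also higher in replicate 2, and their part in the Plg difference was not tested.

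**Figure D4:**
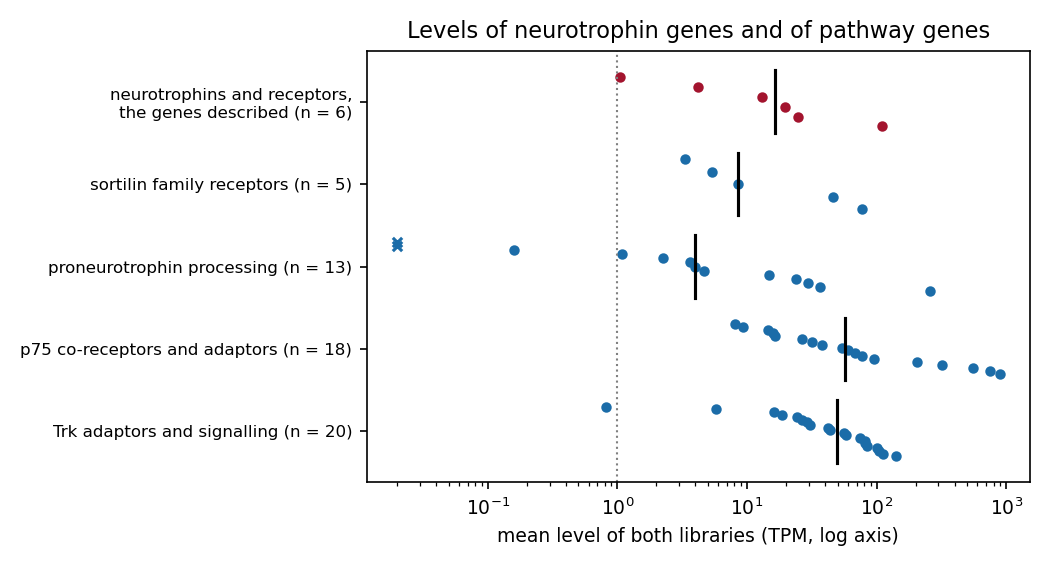
Mean level of both libraries in TPM (log axis) for the 6 neurotrophin and receptor genes (red) and for the genes of 4 pathway lists (blue); black bars are medians, the dotted line marks 1 TPM, and crosses at the left edge are genes with 0 counts, drawn at an arbitrary low position. The p75 adaptor genes and the Trk adaptor genes have medians of 57.1 and 49.8 TPM, against 16.3 TPM for the 6 genes.

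Of 19 listed symbols for co-receptor and adaptor genes of p75, 18 were found. All 18 reached 1 TPM in both libraries, with a median of 57.1 TPM, and the highest were Maged1 (889 ± 5.68 TPM), whose product binds the inner part of p75, the dissociation inhibitor gene Arhgdia (753 ± 22.5 TPM), Ngfrap1 (555 ± 9.78 TPM), another p75-binding protein gene, and Ndn (320 ± 11.0 TPM), the imprinted Necdin gene. The lowest was Rtn4r, the Nogo receptor gene, at 8.04 ± 0.327 TPM. Between the libraries 1 of the 18 was higher in replicate 2 and 1 lower at an adjusted p under 0.05, against 8.85% higher and 8.65% lower among all genes tested. Maged1, Arhgdia and Ndn also have known roles outside neurotrophin signalling.

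Adaptors and signalling genes downstream of the Trk receptors reached 1 TPM in both libraries in 19 of 20 cases, with a median of 49.8 TPM. Crk (142 ± 3.55 TPM), the phosphatase gene Ptpn11 (111 ± 4.74 TPM), the phospholipase gene Plcg1 (105 ± 7.06 TPM) and Sh2b1 (102 ± 1.09 TPM) were highest, and many other receptor kinases use them too. The exception was Shc3, an adaptor gene known mainly from neurons, with 12 and 8 counts (0.818 ± 0.144 TPM), whereas the widely used family gene Shc1 stood at 74.9 ± 5.76 TPM. By the binomial test 8 of the 20 were higher in replicate 2 at an adjusted p under 0.05 and none was lower, against 8.85% higher and 8.65% lower among all genes tested. Those shares include genes with far fewer counts, which pass less easily: of the 8, Cbl had the fewest counts (908 and 1030). None of the 8 differed by 2-fold, and the median log2 ratio of the list was 0.06, against -0.01 over all genes tested.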

How the data were processed

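RNA was sequenced from polyadenylated RNA with a stranded kit, per the labels. The tools named in the submitters' processing notes are featureCounts, SAMtools 1.3 and STAR 2.4.0a, and the build named there is mm9. Of 35719 symbols shared with GENCODE M21 (GRCm38), 20081 (56.2%) had an identical position and 82.1% at least 1 identical boundary, so positions are given as GRCm38. The authors deposited raw counts per gene, the gene length and TPM, which equals count per length scaled to a fixed sum (largest difference 4.73e-11).

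Intervals of levels and of ratios within a library are exact Poisson and Clopper-Pearson intervals at 95%. A count of 0 allows 3 counts. Log2 ratios between libraries used counts plus 0.5, scaled by TMM factors (edgeR 4.0.16). The exact binomial test used the counts as deposited with the same scaling, because edgeR's quasi-likelihood fit has no residual degrees of freedom with 1 library a side. On simulated counts with 200 changed genes, the test recovered 99.0% at 2.5-fold and 100% at 4-fold, with 2 and 3 unchanged genes called among 19443 and 19412 tested. The simulated counts held counting noise only, as the test assumes, and the changed genes had 100 counts or more over both libraries. The few false calls therefore do not carry over to the real libraries, whose spread beyond counting was estimated at 7.99%. Alternatives were total counts, DESeq2 1.42.0 size factors, edgeR's exact test with a common dispersion, other filters and thresholds, other TPM sums and each library alone. Coding sequences came from GENCODE M21 and were aligned with MAFFT 7.526.

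Named were the 6 genes, the 4 highest and the lowest gene of each of 4 pathway lists and those past the 2-fold call, and the 3 highest and the 0-count genes of 11 marker lists. Gata4, Shc1 and Cbl were named after their values were seen. Some genes of the family are not reported here. Of the listed symbols 3 were not found, and nothing was analysed under them, which need not mean that the gene is missing under another symbol. The genes and lists were chosen with earlier results of these data known.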

Additional observations from a re-analysis of the deposited data

How the results depend on the processing

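Within the settings tried, no log2 ratio of the 6 genes changed sign and none reached the 2-fold call, while adjusted p ranged from 0.0102 to 1 for Ngfr and from 0.00246 to 1 for Ntrk2. The number of genes called different between the libraries, 245, was 146 with at least 50 counts and 104 with edgeR's exact test (146 at its adjusted p alone). Without features shorter than 200 bases the mean levels were 1.16 TPM for Bdnf, 27.7 for Ntf3, 14.6 for Ntf5, 122 for Ngfr, 4.70 for Ntrk2 and 21.9 for Ntrk3, a rescaling common to all genes kept. Without mitochondrial and haemoglobin genes Bdnf stood at 1.10 TPM and Ntf3 at 26.3. In CPM, 2 of the 6 genes (Ngfr and Bdnf) kept their place in the order, and 4 of 6 did with all GENCODE exon bases as length, an alternative chosen after seeing the data. Without replicate 1 or without replicate 2 the order was the same. At 5 TPM in both libraries 3 sortilin family, 5 cleavage, 5 neuronal, 1 sympathetic, 0 motor neuron and 1 sensory gene passed, and at 0.5 TPM 5 sympathetic genes. Leaving out a replicate gave 3 to 5 sympathetic genes. No paired analysis was possible because the series has a single group. Bdnf, with 55 and 47 counts, is the gene that depth limits most.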
